A study of Mus musculus with 6 samples.

Results

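C1q-high macrophages were defined as cells with at least 1 UMI (a read count collapsed to the molecule it came from) of Csf1r, the receptor for colony stimulating factor 1, and at least 5 UMIs summed over C1qa, C1qb and C1qc. Cells with any Cd3e, Cd3d or Ncr1 UMI, genes of T and NK cells, were left out. The rule gave 159 cells of the 6364 that passed quality filters, 80 in the Empty vector library and 79 in the Bmal1 WT library. The other 906 cells with a Csf1r UMI served as the comparison, among them 71 with a Cd3e, Cd3d or Ncr1 UMI, which the rule kept out of the members. C1q and Csf1r UMIs chose the cells, so every difference between C1q-high macrophages and other Csf1r cells is given as a description with no test. Differences between Empty vector and Bmal1 WT were tested over hashtag replicates.

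C1q is the recognition molecule that starts the classical complement cascade when it binds antibody or the surface of dying cells. Its 3 chains are encoded by neighbouring genes, C1qa, C1qb and C1qc. Unlike most complement proteins, which the liver makes, C1q comes mainly from macrophages, the phagocytes that take up dying cells, lipids and debris. In tumours, macrophages that make C1q are commonly described with apolipoprotein E, the mannose receptor and genes of antigen presentation. Monocytes recruited from blood, marked by Ly6c2 and Ccr2, lose the first of these markers as they mature into macrophages.

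The libraries came from YUMM2.1, a mouse melanoma line with mutant Braf and altered Cdkn2a and β-catenin alleles, according to the study's methods. In one group the line carried an empty vector (Empty vector, EV), and in the other it carried a vector for wild-type Bmal1, the circadian transcription factor (Bmal1 WT, WT). Per the study's methods these were stable pools selected by their green fluorescence, and tumours were grown under the skin of C57BL/6 mice. The labels name only the YUMM2.1 cell line as source and give no tissue, host, age or time, while 1551 of the cells had a Cd3e or Cd3d UMI and no Csf1r UMI. Each group was 1 droplet library holding 3 labelled replicates told apart by antibody hashtags, h1, h7 and h8 in EV and h3, h5 and h9 in WT. Group and library therefore cannot be told apart, and nothing in the labels says whether the replicates were separate animals. The p-values measure the spread between these hashtag samples.

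EV held 34232927 UMIs over 4147 barcodes, of which 3978 were kept, and WT 39561569 over 2785, of which 2386 were kept. The files of the mutant Bmal1 bHLH group were identical to those of WT in 3 of 3 files and were not analysed here. The C1q-high macrophages carried a median of 12030 UMIs and 2967.5 genes in EV and 15700 UMIs and 3486 genes in WT. The other Csf1r cells had medians of 7954 and 10643 UMIs. By hashtag the members numbered 32, 24 and 20 in EV and 28, 32 and 11 in WT. A further 12 had no or several hashtags and entered only the library totals. The libraries shared 5 barcodes, none of them a member. In all, 2 EV and 2 WT members fell among the highest 5% of doublet scores of their library.

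The sequences upstream of the genes that define these cells, or that set a subset of them apart, are shown so that the letters can be read beside the values. C1qb lies at chr4:136880129-136886187 on the minus strand, C1qc at chr4:136889804-136893065 and C1qa at chr4:136895917-136898803 on the same strand (GRCm38). Retnla lies at chr16:48842551-48844461 and Ccl8 at chr11:82115185-82116799, both on the plus strand. Windows of 250 bases before the RefSeq start (GRCm38.p6) were searched, and those of C1qc and Retnla are shown without their last 151 and 58 bases, which GENCODE places inside the gene. The bases shown end before the first base transcribed in GENCODE and cover chr4:136886201-136886450 for C1qb, chr4:136893066-136893164 for C1qc, chr16:48842359-48842550 for Retnla and chr11:82114935-82115184 for Ccl8. Capitals mark matches to GAGGAA, the core bound by the macrophage factor PU.1, on either strand, and to TTC and GAA spaced by 4 bases, a site type of STAT6, the factor that acts downstream of IL-4.
C1qb: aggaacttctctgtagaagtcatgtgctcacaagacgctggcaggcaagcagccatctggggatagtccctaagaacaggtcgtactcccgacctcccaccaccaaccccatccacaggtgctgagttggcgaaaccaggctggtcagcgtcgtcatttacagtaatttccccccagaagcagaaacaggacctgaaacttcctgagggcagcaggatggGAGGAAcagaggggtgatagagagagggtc
C1qc: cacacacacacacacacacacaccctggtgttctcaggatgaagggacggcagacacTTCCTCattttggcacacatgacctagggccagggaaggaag
Retnla: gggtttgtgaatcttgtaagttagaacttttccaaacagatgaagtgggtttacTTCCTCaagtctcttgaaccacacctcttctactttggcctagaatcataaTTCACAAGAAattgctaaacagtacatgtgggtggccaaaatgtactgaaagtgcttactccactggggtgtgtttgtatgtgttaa
Ccl8: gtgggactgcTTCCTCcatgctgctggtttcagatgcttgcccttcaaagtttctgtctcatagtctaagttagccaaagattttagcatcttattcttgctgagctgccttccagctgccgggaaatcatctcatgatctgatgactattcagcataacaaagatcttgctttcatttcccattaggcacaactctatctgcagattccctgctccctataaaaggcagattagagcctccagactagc
GAGGAA stood 30 to 25 bases before the RefSeq start of C1qb. On the opposite strand it stood 42 to 37 bases before the end of the C1qc bases shown, 138 to 133 before that of Retnla and 240 to 235 before that of Ccl8. It occurred in 23.3% of the 32851 promoter windows of 250 bases, so its presence is common. The STAT6 type was found in the Retnla window alone among these 4, at 87 to 78 bases before the end of the bases shown, and in 5.85% of all windows. CACGTG, the E-box bound by Bmal1 with Clock, was found in none of the 4 windows and in 6.02% of all windows. Of 9 marker genes, 6 had an entry in the promoter table.

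C1q UMIs were spread widely across the Csf1r cells. Of those without Cd3e, Cd3d or Ncr1, 769 had no C1q UMI and 66 had 1 to 4. Just outside the threshold 11 cells had 4 C1q UMIs, and just inside it 8 had 5 and 10 had 6. Among the members, 52 had 20 to 49 UMIs and 45 had 50 or more. The median was 29 C1q UMIs per cell, 21.5 in EV and 33 in WT, and the highest was 176 in EV and 395 in WT. WT members were deeper, and per 10000 UMIs of the cell the medians were 27.5 in EV and 32.7 in WT. All 3 chains were found in 128 of the 159 cells, 2 chains in 27 and 1 chain in 4.

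C1q-high macrophages made up 11.6% of the Csf1r cells in EV (80 of 687, exact 95% binomial interval 9.34 to 14.3) and 20.9% in WT (79 of 378, 16.9 to 25.4). The intervals cover counting error only. Over hashtags the share was 10.3% in h1, 24.5% in h7 and 9.26% in h8 of EV, against 14.4% in h3, 35.2% in h5 and 17.5% in h9 of WT. The groups overlapped, since h7 of EV lay above h3 and h9 of WT. The mean was 14.7% ± 8.50 (SD, n = 3) in EV and 22.4% ± 11.2 in WT, a difference of 7.66 percentage points (two-sided exact permutation test, p = 0.5, adjusted p = 0.5). Of all cells the share was 2.28%, 3.45% and 1.78% in EV and 3.5%, 6.46% and 3.37% in WT. The groups overlapped again, with h9 of WT just under h7 of EV, and the difference of 1.94 points had an exact permutation p of 0.2 (adjusted p = 0.4). With 3 against 3 replicates this test cannot go below 0.1. Without h5 of WT the differences were 1.26 and 0.93 points. WT cells were sequenced more deeply, and with each cell thinned to 2000 UMIs and 1 C1q UMI required, the shares of Csf1r cells were 15.6%, 36.4% and 8.70% in EV and 14.7%, 37.0% and 12.5% in WT, a difference of 1.20 points (exact permutation p = 0.9). Thinning left out 615 EV and 379 WT cells of lower depth.

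**Figure D1:**
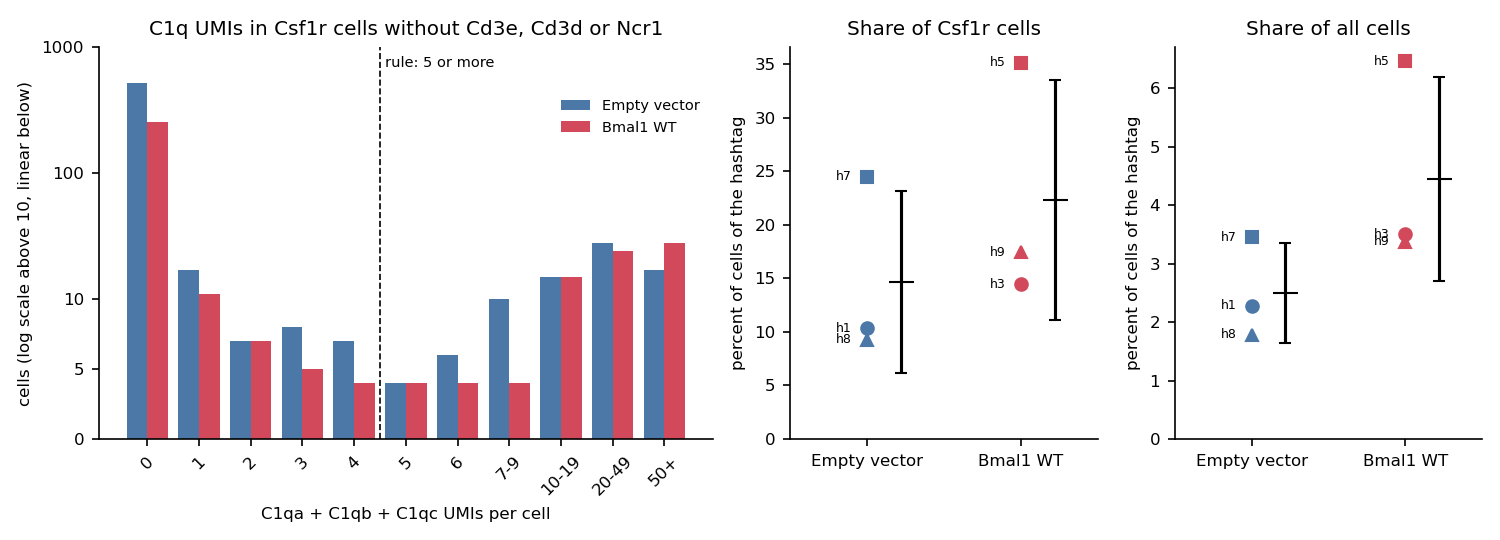
Left, number of Csf1r cells (log axis above 10, linear below) by summed C1q UMIs per cell, with a dashed line at the threshold of 5; right, percent of Csf1r cells and of all cells that were C1q-high macrophages, 1 point per hashtag with mean and SD (n = 3). Most Csf1r cells had no C1q UMI, and h7 of Empty vector and h5 of Bmal1 WT had the highest shares in their groups.

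Of the marker genes given for these cells, C1qa and C1qc were used by the rule. In members, C1qa was at 1126, 1774 and 761 CPM (a gene's UMIs as a share of all UMIs of the summed cells, scaled to 1000000) in h1, h7 and h8 of EV and at 1215, 2777 and 1167 CPM in h3, h5 and h9 of WT. The other Csf1r cells of the same hashtags were at 2.56 to 220.1 CPM. In the 2 libraries they included 9 EV and 5 WT cells with at least 5 C1q UMIs, left out of the members for a Cd3e, Cd3d or Ncr1 UMI. CPM of 3′ libraries counts molecules and does not depend on gene length.

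Apoe, which carries lipids between cells, was at 2508, 4344 and 1129 CPM in EV and 3959, 4023 and 1413 CPM in WT. It was above the other Csf1r cells in 5 of 6 hashtags and below them in h9, where they had 1814 CPM. In WT, 66.2% of the Apoe UMIs came from 5 cells, and the top cell held 1394. Mrc1, the mannose receptor, was at 162, 465 and 146 CPM in EV and 188, 468 and 209.5 CPM in WT. It was higher than in the other Csf1r cells in 6 of 6 hashtags, with h7 and h5 the highest of their groups. Ccl24, an eosinophil attractant, reached 607, 5837 and 2311 CPM in EV and 1258, 1191 and 5717 CPM in WT, also above the others in 6 of 6. Its UMIs came from 10 to 21 cells per hashtag in EV and 9 to 20 in WT.

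Ccl8 and Retnla were found in few of the cells. Ccl8, a monocyte attractant, was at 0, 101 and 0 CPM in EV and 695, 628 and 0 CPM in WT, so 3 of 6 hashtags held none. The EV value was 1 cell with 29 UMIs, and in WT 98.4% of the UMIs lay in 5 of 10 positive cells. Retnla, a secreted protein induced by IL-4, was at 0, 427 and 0 CPM in EV and 1553, 965 and 281 CPM in WT. The groups overlapped, since h7 of EV lay above h9 of WT. A single cell held 61.0% of the Retnla UMIs of h3 and 89.1% of those of h5. The log2 fold change of WT over EV was 3.78 (SE 2.04) for Ccl8 and 2.74 (SE 1.93) for Retnla, with edgeR adjusted p = 0.568 and 0.661. Among the EV hashtags only h7 held a UMI of either gene. Without it the fitted values, 10.5 and 11.5, stand against 0 UMIs and are no measure of size, and with any other hashtag left out they were 3.12 to 4.32 for Ccl8 and 2.12 to 3.15 for Retnla. Of the marker genes that the rule did not use, Apoe was found in 129 of the 159 members, Ccl24 in 101, Mrc1 in 81, Retnla in 27 and Ccl8 in 11. Mrc1 was found in 37 of the 80 EV members, and by hashtag in 20% (h8) to 70.8% (h7).

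**Figure D2:**
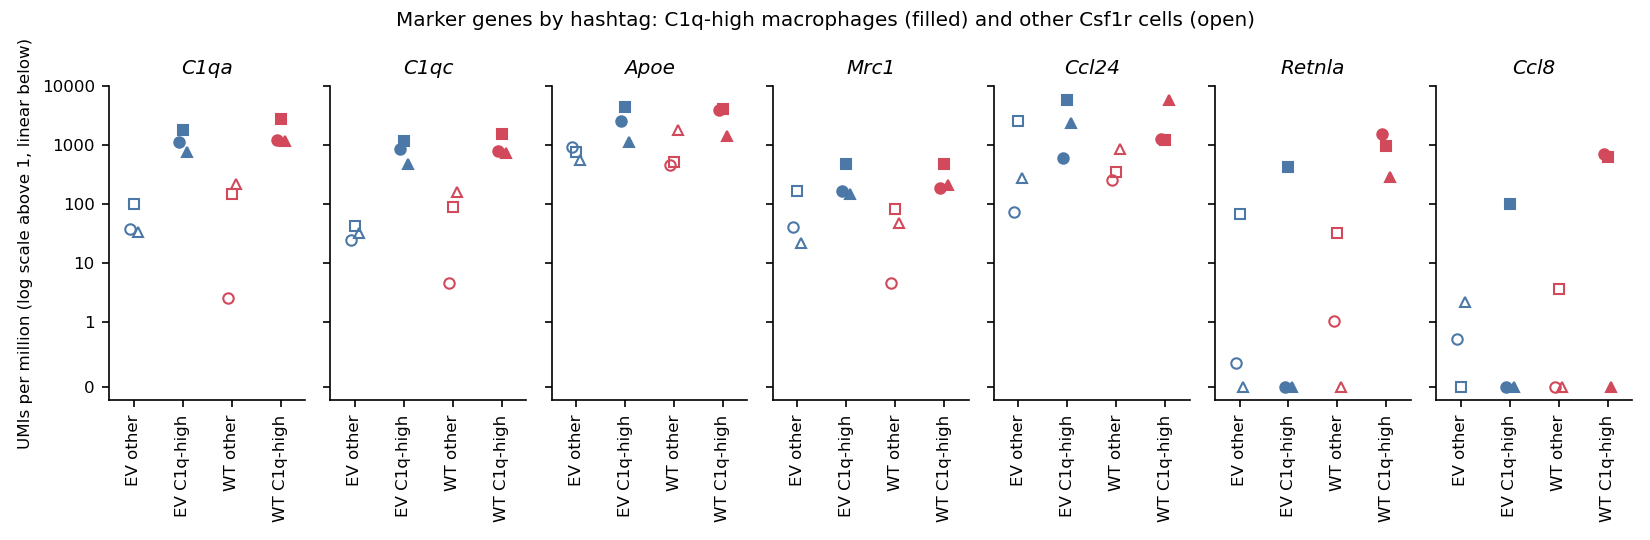
CPM of 7 marker genes (log axis above 1, linear below) in C1q-high macrophages (filled) and other Csf1r cells (open), with circle, square and triangle for h1, h7 and h8 of Empty vector and for h3, h5 and h9 of Bmal1 WT. Mrc1 and Ccl24 were higher in C1q-high macrophages in 6 of 6 hashtags, while Ccl8 was at 0 in 3.

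Shares of cells with a UMI gave the same contrast. Mrc1 was detected in 50.9% of members (interval 42.9 to 58.9) and 8.61% of other Csf1r cells, and in 0 of the 1551 cells with Cd3e or Cd3d and no Csf1r, which allows a share of up to 0.193% with a UMI. Median depths were 13225, 9062 and 5085 UMIs. After thinning to 2000 UMIs the Mrc1 shares were 30.5% and 3.67%. The shares that follow are raw unless given as thinned, and raw shares are not adjusted for the greater depth of the members. Ccl24 was detected in 63.5% of members, 15.5% of other Csf1r cells and 0.903% of those Cd3 cells, and Apoe in 81.1%, 63.0% and 2%. Mertk, a receptor that engulfs dying cells, was detected in 43.4% of members and 7.73% of the others, and in 9.27% and 2.64% after thinning. Trem2, a lipid-sensing receptor, was detected in 60.4% and 24.3%. Ccr2, the receptor that brings monocytes out of blood, was found in 90.6% of members and 83.9% of the others. Ly6c2 was found in 42.1% of members and 68.0% of the others. Lyve1 and Timd4, markers of long-resident tissue macrophages, were detected in 0 of 159 members, which allows a share of up to 1.89% with a UMI, and Folr2 and Cd163 in 4 and 1 cells.

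Against the other Csf1r cells, genes were compared by the ratio of mean CPM over the 6 hashtags with 5 CPM added to each side. Of 5336 genes with at least 50 UMIs in the members, 283 (5.3%) were higher in 6 of 6 hashtags and 522 (9.78%) lower in 6 of 6. The median ratio was 0.971, and 36 and 53 of these genes differed by more than a factor of 2. After the C1q genes themselves, at ratios of 14.5 to 15.8, the ratio was highest for Fcrls, an Fc receptor-like gene of microglia and macrophages, at 5.45, and Klrb1b, a C-type lectin, at 5.22. Next came Mrc1 at 4.26, Ccl24 at 3.89, the cyclooxygenase Ptgs1 at 3.79 and Mertk at 3.49. Axl, a relative of Mertk, stood at 2.61, the chemokines Cxcl16 and Cxcl9 at 2.80 and 2.58, and Gatm, an enzyme of creatine synthesis, at 2.72. Toward the other end, the proteoglycan Vcan had a ratio of 0.269, and the integrin chains Itgal and Itgb7 had 0.326 and 0.350. The 71 comparison cells that held a Cd3e, Cd3d or Ncr1 UMI were then left out, a choice made after seeing the data. Without them Vcan, Itgal and Itgb7 were at 0.245, 0.314 and 0.340, Mrc1 at 5.41 and Mertk at 3.96. The C1qa, C1qb and C1qc ratios were 174.6, 81.4 and 98.9. In 6 of 6 hashtags, 302 genes were higher and 533 lower.

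**Figure D3:**
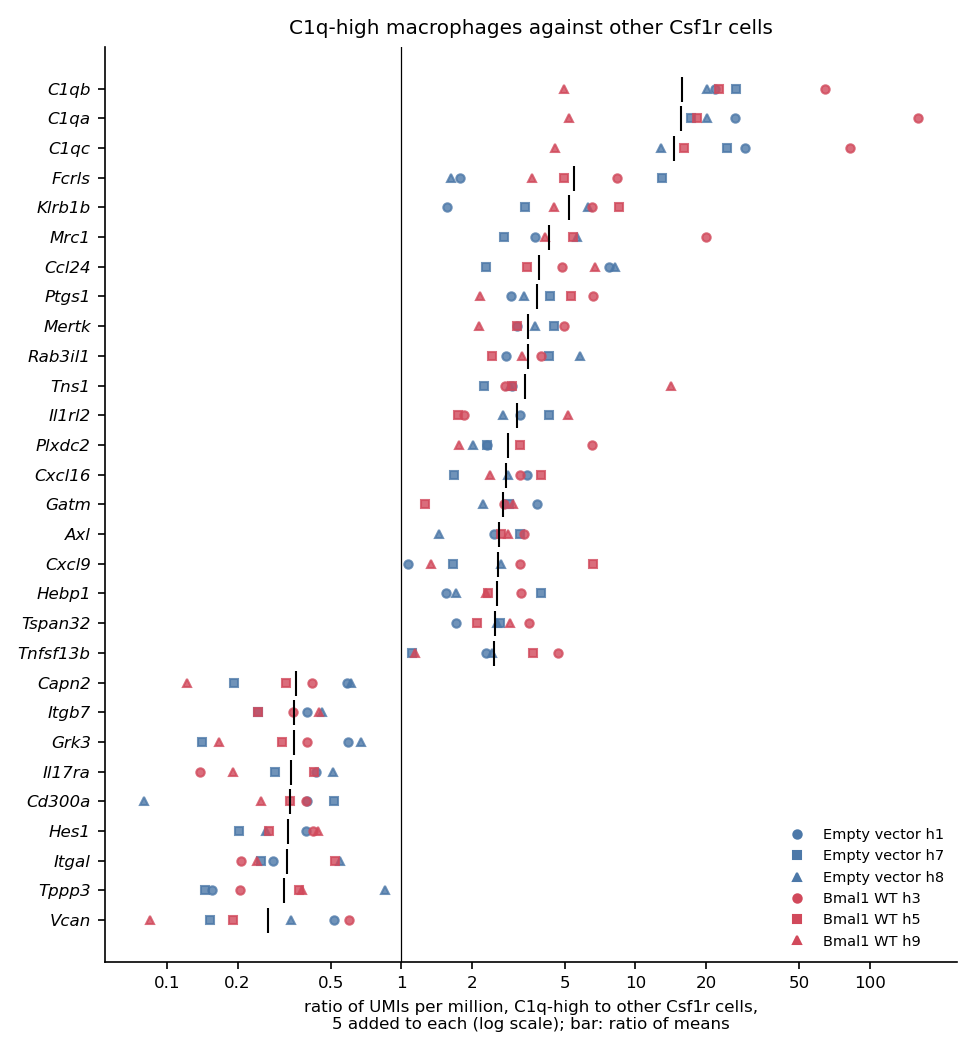
Ratio of CPM in C1q-high macrophages to that in other Csf1r cells with 5 added to each (log axis), for the 20 highest and 9 of the 10 lowest genes among those on the same side in 6 of 6 hashtags. Points are hashtags and bars the ratio of means, from 15.8 for C1qb to 0.269 for Vcan.

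Of the 11 genes of antigen presentation on MHC class II, 6 were higher in members than in the other Csf1r cells in 6 of 6 hashtags. The list counts here include genes that missed the filter of 50 UMIs. Among the 5336 genes that passed it, 5.3% were higher and 9.78% lower in 6 of 6. The class II chains H2-Aa, H2-Ab1 and H2-Eb1 had ratios of 2.17, 2.08 and 2.42. Cd74, the invariant chain that guides them, had 1.98, and the peptide exchangers H2-DMa and H2-DMb1 had 1.95 and 1.96. H2-Ab1 was detected in 91.2% of members and 56.8% of the others. Of the lipid and lysosome list 6 of 36 genes were higher in 6 of 6, among them Trem2 at 2.44, lipoprotein lipase Lpl at 2.17 and the protease Lgmn at 1.62, and 2 were lower, the fatty acid carrier Fabp4 at 0.331 and the cholesterol esterifier Soat1 at 0.805. Of the alternative activation list 4 of 23 were higher, namely Mrc1, Ccl24, the checkpoint ligand Pdcd1lg2 at 2.26 and the IL-1 antagonist Il1rn at 1.35, and 2 were lower, the growth factor Tgfb1 at 0.753 and the clotting factor chain F13a1 at 0.480. Without the 71 cells Il1rn was higher in 5 of 6. Of the 11 monocyte genes 7 were lower in 6 of 6, including Plac8, a gene of monocytes, at 0.439, and 0 were higher in 6 of 6. Ly6c2 was lower in 4 of 6 hashtags, at 0.618, while Ccr2 was higher in 5 of 6, at 1.25.

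Other Csf1r cells were also divided by genes of nearby myeloid states, in groups that can share cells. These were 394 cells with an Arg1 or Nos2 UMI, 616 with Ly6c2, 325 with Ace or Adgre4, genes of patrolling monocytes, and 115 with Flt3 or Zbtb46, genes of dendritic cells. The values pool both libraries. Mmp12, the macrophage elastase, was at 1056 CPM in members and at 134, 37.4, 7.88 and 161 CPM in these groups. Its member UMIs ran from 10 in h1 of EV to 1390 in h5 of WT. By hashtag, members were above the other Csf1r cells in 5 of 6. Retnla was at 801 CPM in members and at most 16.8 CPM in the others. H2-Ab1 was at 5036 CPM in members and 4897 CPM in Flt3 or Zbtb46 cells, against 1031 to 1397 CPM elsewhere. Mgl2 and Ccl17, shared by dendritic cells and alternatively activated macrophages, were at 508 and 690 CPM in members and at 727 and 1175 CPM in Flt3 or Zbtb46 cells. Mertk separated those classes, with 74.4 CPM in members and 2.20 CPM in Flt3 or Zbtb46 cells. Arg1 was at 2099 CPM in members and 3021 CPM in Arg1 or Nos2 cells, which were chosen on it. Spp1, osteopontin, was at 1741 CPM in members and 4449 CPM in those cells.

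The 27 members with a Retnla UMI were set against the other 132 after their values had been seen, and no test was made. Ccl8 was detected in 10 of the 27 and 1 of the 132. Mrc1 was detected in 20 and 61, Ccl24 in 22 and 79, and Ear2, a ribonuclease of alternatively activated macrophages, in 21 and 54. Ly6c2 went the other way, in 2 of 27 and 65 of 132. By summed CPM the Retnla cells had 13.6 times as much Igf1, a growth factor, 15.7 times as much Mmp13, a collagenase, and 5.66 times as much Apoe, with 5 CPM added to each side. These sums pool cells and hold no spread between them. Igf1 rested on 83 UMIs against 18, and Mmp13 on 53 against 6. Among all members, single cells held 71.8% of the Apoe UMIs of h3 and 49.4% of those of h5. Plac8 was at 0.1 and the monocyte chemokine Ccl2 at 0.0618 of the level in the rest. Median depths were 16763 and 13144 UMIs. Of these 27 cells, 22 were in WT and 5 in EV, the latter all in h7.

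Bmal1 WT was compared with Empty vector in C1q-high macrophages by edgeR's quasi-likelihood test on UMIs summed per hashtag. Of 5336 genes tested, 0 (0%) passed an adjusted p of 0.05, and the lowest adjusted p was 0.113. At an unadjusted p under 0.05 there were 613 genes (11.5%), 252 higher in WT (4.72%) and 361 lower (6.77%). DESeq2 called 11 genes on the same sums. These were Cst3, Mt1, Cd24a, Cxcl1, Mki67 and the neutrophil gene Retnlg, whose 70 UMIs were all in h9, higher in WT, and Apobec1, Itgam, Gatm, Ccl12 and Cxcr4, lower in WT. With 1 hashtag left out edgeR called 9 genes without h7 of EV, 2 without h5 of WT, 2 without h9 of WT and 0 without each of the other 3. Values that did not overlap between groups were seen for 415 genes higher in WT (7.78%) and 507 lower (9.5%). The median log2 fold change of all genes was -0.06, with 2936 negative and 2400 positive of the 5336. The summed depth ran from 247132 to 381985 UMIs in EV and from 167059 to 637054 in WT. None of the differences below passed the edgeR test.

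Among the genes with higher values in WT, Cst3, the protease inhibitor cystatin C, had the lowest p. It was at 987, 844 and 975.2 CPM in EV and 2155, 1708 and 2376 CPM in WT. Each WT hashtag lay above each EV hashtag, with a log2 fold change of 1.15 (SE 0.19, adjusted p = 0.113), and DESeq2 called it (adjusted p = 0.00496). The other Csf1r cells had 2142 to 2481 CPM in WT and 1540.0 to 3959.8 CPM in EV. Mt1, a metal-binding metallothionein, was at 379.6, 399 and 635 CPM in EV and 1294, 1284 and 886 CPM in WT. Its groups did not overlap, at a log2 fold change of 1.30 (SE 0.25). Cd24a, a surface glycoprotein, was at 36.7, 27.8 and 44.5 CPM in EV and 189.6, 75.3 and 227 CPM in WT. Here too the groups did not overlap, at 2.12 (SE 0.43). Rpl32, a ribosomal protein gene, had a log2 fold change of 0.82, and the G protein-coupled receptor Gpr171 1.51, both without overlap.

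Cxcl1, a neutrophil attractant, was at 0 in all EV hashtags and at 67.3, 113 and 18.0 CPM in WT, from 11 WT cells. Over the summed groups WT was at 83.4 CPM, 25.5 times the 3.27 CPM that 3 UMIs over the EV group allow. This ratio pools cells and hashtags and holds no spread between them. Cells with a Retnla UMI held 85 of the 108 Cxcl1 UMIs. Mki67, a gene of dividing cells, was at 7.85, 0 and 4.05 CPM in EV and 65.2, 84.8 and 23.9 CPM in WT, from 3 and 8 cells. Chchd10, Hepacam2 and Golgb1 also had no overlap between groups, with log2 fold changes of 2.21, 2.76 and 1.82. Mmp12 was at 26.2, 323 and 469 CPM in EV and 1089, 2182 and 1036 CPM in WT, from 10 and 38 cells. It did not overlap, at a log2 fold change of 2.42 (SE 1.05, adjusted p = 0.49).

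Among the genes with lower values in WT, Apobec1, an RNA-editing deaminase, had the lowest p. It was at 199, 142 and 146 CPM in EV and 61.2, 44.0 and 35.9 CPM in WT. It showed no overlap, at a log2 fold change of -1.74 (SE 0.29, adjusted p = 0.113). Itgam, the integrin chain CD11b, was at 565, 497 and 716 CPM in EV and 281, 154 and 245 CPM in WT. All WT hashtags were below all EV hashtags, at -1.39 (SE 0.26). In the other Csf1r cells Itgam was at 491 to 609 CPM in EV and 345 to 610.1 CPM in WT. Ccr2 was at 1322, 1986 and 1655 CPM in EV and 903, 691 and 879.9 CPM in WT, again without overlap, at -1.01 (SE 0.21). C5ar1, the receptor for the complement fragment C5a, was at 128, 153 and 194 CPM in EV and 59.1, 80.1 and 29.9 CPM in WT, at -1.36 (SE 0.32). Ms4a6b, Ms4a6c, Sdcbp, BC005537, Marcksl1 and Mef2a likewise did not overlap, at log2 fold changes of -1.48, -1.04, -0.98, -0.97, -1.52 and -0.94. Gatm, 2.72 times as high in members as in the other Csf1r cells, was at 2547, 4775 and 2298 CPM in EV and 1058, 557 and 1413 CPM in WT. Its groups did not overlap in members (log2 fold change -1.68, SE 0.43, adjusted p = 0.307) nor in the other Csf1r cells, at 669.7 to 1646 CPM in EV and 381 to 466 CPM in WT.

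**Figure D4:**
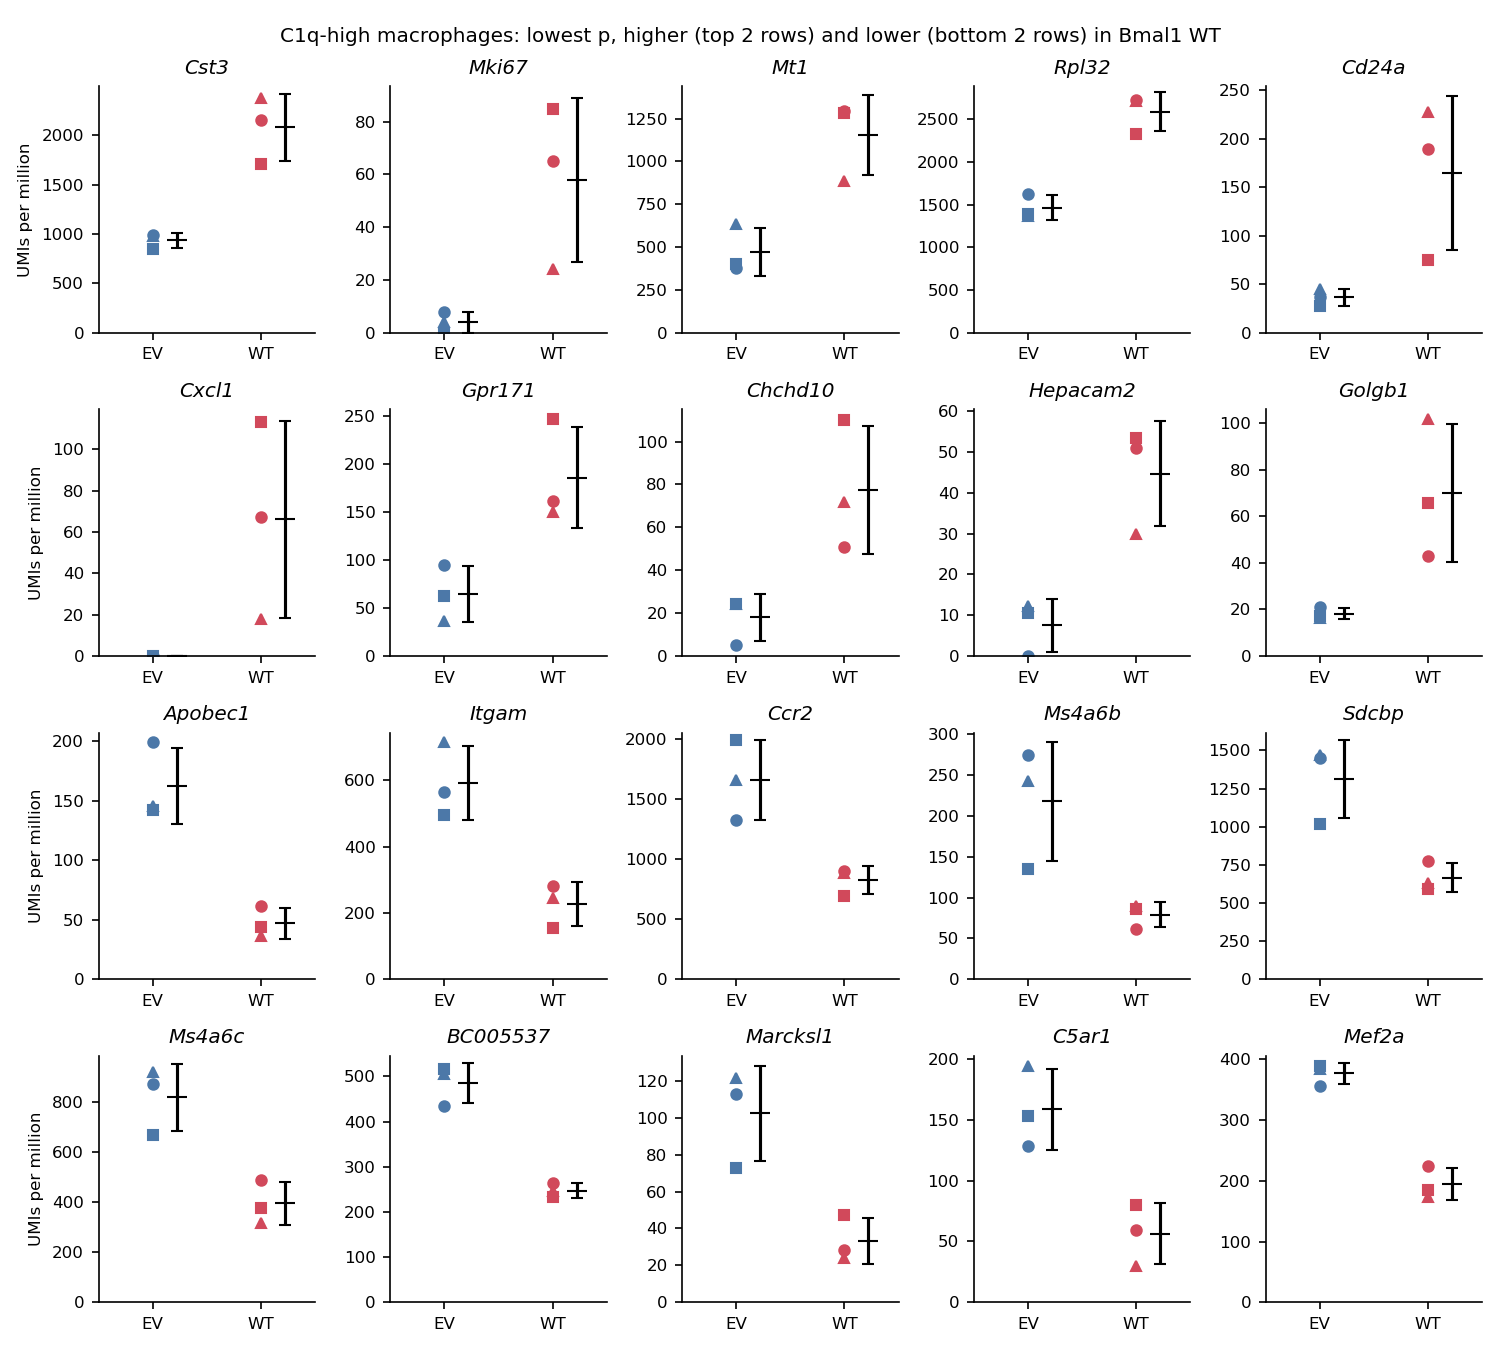
CPM in C1q-high macrophages of the 20 genes with the lowest unadjusted p among those whose hashtags do not overlap, 10 higher (top rows) and 10 lower (bottom rows) in Bmal1 WT (WT, red) than in Empty vector (EV, blue), with mean and SD (n = 3). None passed the adjusted threshold; Cst3 and Apobec1 had the lowest adjusted p, 0.113.

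Of 17 transcription factors of macrophages tested, 16 had a negative log2 fold change, and the median was -0.62 against -0.06 over the whole table. At an unadjusted p under 0.05 there were 8, and 9 did not overlap, all lower in WT, beside 6.77% and 9.5% lower among all genes. Cebpb, a factor of myeloid differentiation, was at 3364, 2233 and 3796 CPM in EV and 2071, 1665 and 1987 CPM in WT. It did not overlap (-0.71, SE 0.20, adjusted p = 0.307). Bach1, a repressor that senses heme, was at 257, 247 and 243 CPM in EV and 137, 130.3 and 149.6 CPM in WT (-0.85, SE 0.22). Hif1a, the hypoxia factor, was at 605, 997 and 1072 CPM against 542, 554 and 497 CPM (-0.74), and Klf2 stood at -1.15. Spi1, which encodes PU.1, was at 209, 233 and 239 CPM in EV and 241, 218 and 192 CPM in WT, with overlap (-0.05, SE 0.22). The summed list was at 10582, 10206 and 11399 CPM in EV and 7559, 6277 and 7267 CPM in WT, and its median stayed between -0.47 and -0.66 under all settings tried.

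Of 8 monocyte genes tested, 7 had a negative log2 fold change, with a median of -1.11, beside 2936 negative of all 5336 genes. At an unadjusted p under 0.05 there were 2, and 2 did not overlap, all lower in WT, beside 6.77% and 9.5% lower among all genes. Summed, all 11 genes of the list were at 5741, 3868 and 7611 CPM in EV and 2885, 2020.2 and 2646 CPM in WT, without overlap. Ly6c2 itself overlapped, at 1055, 45.1 and 821 CPM in EV and 97.9, 95.8 and 47.9 CPM in WT (-2.92, SE 1.19). Plac8 also overlapped, at 2780.2, 594 and 3399 CPM in EV and 1366, 317 and 958 CPM in WT. Hp, haptoglobin, did not overlap and was at 34.0, 72.9 and 68.8 CPM in EV and 30.6, 4.71 and 29.9 CPM in WT. In h7 of EV, Ly6c2 and Plac8 were low and Retnla, Ccl24 and Mrc1 the highest of the group, so the EV hashtags differed among themselves as well.

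Of 24 chemokine and chemokine receptor genes tested, 19 had a negative and 5 a positive log2 fold change, with a median of -0.40. At an unadjusted p under 0.05 6 were lower and 2 higher in WT, beside 6.77% and 4.72% of all genes. The list summed to 14451, 14737 and 14195 CPM in EV and 8354, 11428 and 12080 CPM in WT, without overlap. Ccl12, a ligand of Ccr2, was at 563, 139 and 393 CPM in EV and 75.4, 56.5 and 12 CPM in WT. It did not overlap (-2.77, SE 0.67, adjusted p = 0.307), and DESeq2 called it (adjusted p = 0.000154). Cxcr4 was at 696, 337 and 753 CPM in EV and 304, 126 and 102 CPM in WT (-1.71, SE 0.47), without overlap. Cx3cr1, the fractalkine receptor, had -1.40, also without overlap. With 1 hashtag left out the list median ran from -1.12 without h5 of WT to -0.16 without h3 of WT.

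Interferon-stimulated genes leaned on 1 hashtag. Of 36 tested, 34 had a negative log2 fold change, with a median of -1.18, and 7 had an unadjusted p under 0.05, all lower in WT, beside 6.77% of all genes. Over all 37 genes of the list the sum was 14522, 4379 and 7158 CPM in EV and 5272, 4753 and 2807 CPM in WT, with overlap. In h1, 3 of the 32 cells held 49.5% of these UMIs. Rsad2, an antiviral enzyme, was at 2031 CPM in h1 and 10.4 and 117 CPM in h7 and h8, against 204, 549 and 5.99 CPM in WT. Without h1 the list had 11 positive and 19 negative values of 30, a median of -0.32, and log2 fold changes above 0 for Rsad2, Cxcl10 and Isg15. Igtp, an immunity-related GTPase, was even in EV at 62.8, 62.5 and 60.7 CPM and lower in each WT hashtag, at 30.6, 31.4 and 12 CPM (-1.17, SE 0.37).

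MHC class II genes had positive log2 fold changes in 8 of 8 tested, with a median of 0.49, but no member separated the groups. Over all 11 genes of the list the sum was 17472, 31392 and 15546 CPM in EV and 24707, 37375 and 22483 CPM in WT. Thus h7 of EV lay above h3 and h9 of WT. H2-DMa had the lowest p, at 461, 813 and 473 CPM in EV and 767, 1122 and 909.9 CPM in WT (0.68, SE 0.25, adjusted p = 0.352). With h1 or h8 of EV or h5 of WT left out, with C1q set per depth or with each cell weighed the same, at most 6 of 8 were positive. Class I genes were divided, 6 positive and 14 negative, with a median of -0.08.

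**Figure D5:**
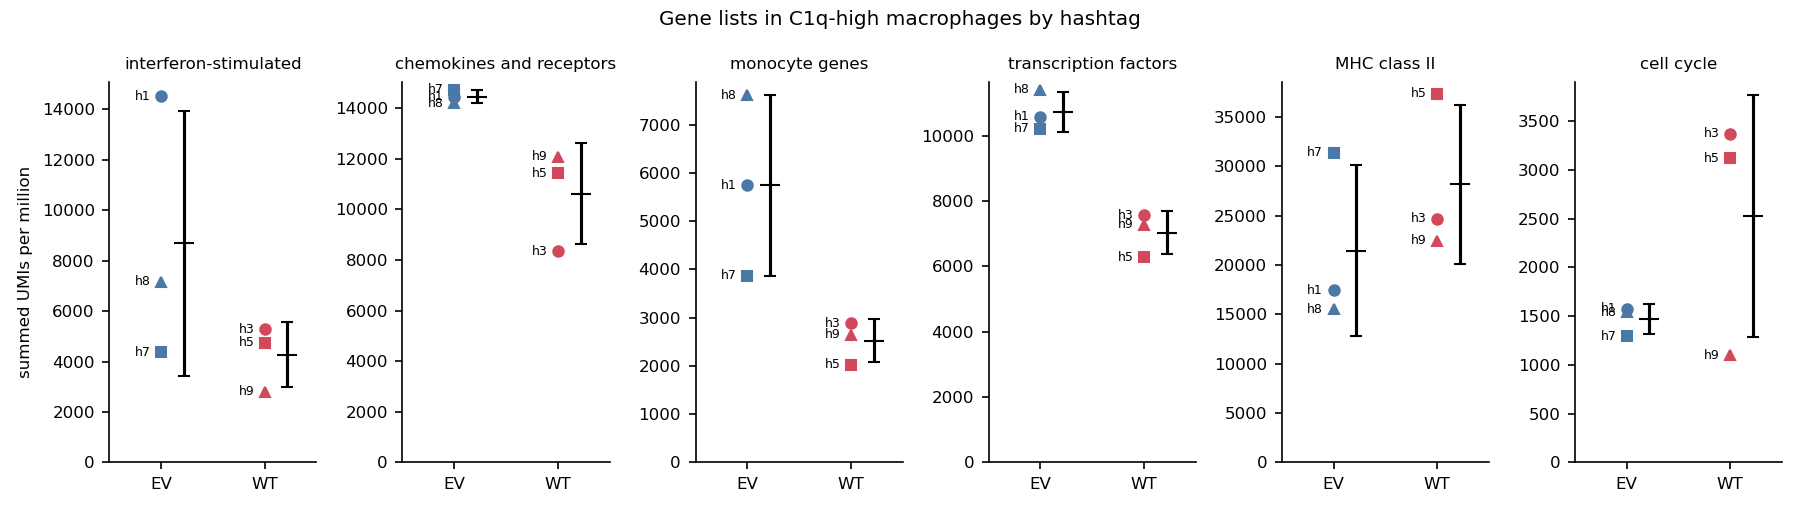
Summed CPM of 6 gene lists in C1q-high macrophages by hashtag, with mean and SD (n = 3), for Empty vector (EV, blue) and Bmal1 WT (WT, red). Chemokines and receptors, monocyte genes and transcription factors did not overlap between groups, while h1 stood apart for interferon-stimulated genes and MHC class II and cell cycle genes overlapped.

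Complement genes other than C1q, 10 tested, had 4 positive and 6 negative values and a median of -0.26. Besides C5ar1, the C3a receptor C3ar1 was at 471, 309 and 231 CPM in EV and 236, 213 and 114 CPM in WT, with overlap (-0.81, SE 0.32). C3 was at 134, 347 and 473 CPM in EV and 143, 261 and 162 CPM in WT, and properdin, Cfp, at 102, 222 and 162 against 177, 290.4 and 192 CPM. Of 32 lipid and lysosome genes, 14 were positive and 18 negative, with a median of -0.08. The lysosomal proteases went opposite ways. Ctsb was at 1694, 1698 and 1578 CPM in EV and 1032, 1143 and 778 CPM in WT (-0.75, SE 0.19), and Ctsd at 233, 247 and 174 CPM in EV and 322, 565 and 281 CPM in WT (0.85, SE 0.29). Neither overlapped. Lpl was lower in each WT hashtag, at 493, 137 and 341 CPM against 749, 590.3 and 740.5 CPM in EV (-1.11, SE 0.41). Scavenger and efferocytosis genes were even, 7 positive and 7 negative of 14, with a median of 0.03, and Mertk and Axl had log2 fold changes of -0.17 and 0.09. With 1 hashtag left out the scavenger median ran from -0.38, without h5 of WT (3 positive, 8 negative), to 0.33, without h7 of EV (9 positive, 4 negative). The complement median ran from -0.90 without h5 of WT to -0.02 without h3 of WT, and that of the lipid and lysosome list from -0.27 to -0.06.

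Of 20 genes of alternative activation, 6 were positive and 14 negative, with a median of -0.30. Arg1, the arginase that competes for arginine, was at 2482, 3622 and 2671 CPM in EV and 2277, 885 and 1574 CPM in WT. Its groups did not overlap (-0.89, SE 0.33, adjusted p = 0.392). Ear2 went the other way without overlap, at 52.4, 333 and 267 CPM in EV and 518, 482 and 437 CPM in WT (1.16, SE 0.60). Of 27 inflammatory genes, 10 were positive and 17 negative, with a median of -0.31. Nos2, the nitric oxide synthase set against Arg1, was at 26.2, 0 and 0 CPM in EV and 126, 94.2 and 0 CPM in WT, from 3 and 11 cells. Matrix and growth factor genes, 21 tested, had a median of -0.27, glycolysis and hypoxia genes, 27 tested, -0.13, Fc and growth factor receptors, 18 tested, -0.15, and heat shock and immediate early genes, 23 tested, -0.01. With 1 hashtag left out the median ran from -0.58 to -0.16 for alternative activation and from -0.47 to -0.04 for inflammatory genes, while those of matrix (-0.35 to 0.13), glycolysis (-0.25 to 0.14) and heat shock genes (-0.26 to 0.07) took both signs.

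Cell cycle genes had positive values in 12 of 13 tested, with a median of 1.23. Over all 23 genes of the list the sum was 1576, 1295 and 1538 CPM in EV. In WT it was 3370 and 3117 CPM in h3 and h5, but 1101 CPM in h9. In h3, 3 cells held 67.2% of these UMIs, and in h5 3 cells held 66.8%. The share of cells with a Mki67 or Top2a UMI overlapped between groups, at 15.6%, 8.33% and 5% in EV and 17.9%, 6.25% and 18.2% in WT. With each cell weighed the same the median was 0.31. Among clock genes only Clock, Per1, Nfil3 and Bhlhe40 passed the filter. Bhlhe40, a repressor of the clock, was at 1097, 802 and 894 CPM in EV and 732, 325 and 754 CPM in WT (-0.64, SE 0.30). The Bmal1 gene itself, Arntl, gave 15 UMIs in these cells, at 5.24, 6.95 and 12.1 CPM in EV and 4.08, 9.42 and 0 CPM in WT.

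Markers of most other cell types gave small sums in the members, while dendritic cell and neutrophil genes were higher in some hashtags. The rule removed cells with a Cd3e, Cd3d or Ncr1 UMI, so the sums of T cell genes, at 5.99 to 157 CPM, and of NK cell genes, at 0 to 20.8 CPM, were partly set by it. B cell genes summed to 3.14 to 101, fibroblast genes to 3.47 to 44.0, endothelial genes to 7.85 to 51.0, melanoma genes to 40.8 to 89.0, mast cell genes to 0 to 8.15 and erythroid genes to 0 to 1.57 CPM. Dendritic cell genes summed to 105, 233 and 611 CPM in EV and 181, 61.2 and 557 CPM in WT. In the other Csf1r cells they summed to 222, 613 and 345 CPM in EV and 229, 251 and 466 CPM in WT. Neutrophil genes summed to 10.5 to 109 CPM in EV and to 61.2, 23.5 and 4250.0 CPM in WT, against 65.5 to 302 CPM in the other Csf1r cells of WT. In members, 1 cell of h9 held 316 of the 317 S100a8 UMIs. The part of these cells in the gene differences was not tested.

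Whether the difference between groups was particular to C1q-high macrophages was tested in 1 model over members and other Csf1r cells, with the hashtag as a block. The adjusted threshold was passed by 1 of the 5336 genes (0.0187%), and 290 (5.43%) were under 0.05 before adjustment. That gene was Rnase2a, an eosinophil-associated ribonuclease, named here for passing after its values were seen. In members it was at 0, 295 and 4.05 CPM in EV and 83.6, 73.8 and 47.9 CPM in WT. In the other Csf1r cells it was at 1.09, 172 and 1.06 CPM in EV and 0, 1.21 and 1.52 CPM in WT. The difference of differences was 5.88 on the log2 scale (SE 0.787, adjusted p = 0.00607). In members it rested on 182 UMIs from 12 cells in each group, 11 of the EV cells in h7. The other Csf1r cells of WT held next to no Rnase2a UMIs, at summed depths of 1953957, 823830 and 658865 UMIs in h3, h5 and h9. The size of the difference of differences therefore leans on values near 0. Within members alone the groups overlapped, at a log2 fold change of -0.46 (SE 1.64). It stayed positive but missed the threshold at 4.63 without h3 of WT (adjusted p = 0.121), 6.11 without h7 of EV (0.774), 4.64 without Retnla cells (0.255) and 4.20 with at least 3 C1q UMIs as the rule (0.521). With 1 hashtag left out, 0 to 9 genes passed this test, the most without h5 of WT. Itgam and Cd24a came next in the full data, with differences of differences of -1.19 and 2.07 and adjusted p = 0.0778 for each.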

How the data were processed

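Droplet 3′ libraries (10x Genomics v3.1) of the Empty vector and Bmal1 WT groups were used, each with 3 antibody hashtags. The authors deposited filtered matrices of raw UMI counts of genes and hashtags, made with Cell Ranger 6.1.2 on mm10 (from the file header and the submitters' processing notes). The study's methods do not describe the single-cell work, and no source used here says whether doublets were removed. Columns of other samples numbered 0. The Bmal1 bHLH files were copies of Bmal1 WT and not used.

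Cells with at least 200 genes and at most 20% mitochondrial UMIs were kept, and total UMIs per cell, which set the precision, are given with the results. A hashtag was called positive by a mixture of 2 components on log counts, and cells with 1 positive hashtag entered replicates. Doublets were scored by a Scrublet-type method and kept. UMIs were summed per hashtag over C1q-high macrophages and over other Csf1r cells, and scaled by total UMIs. Genes with at least 50 UMIs were tested with edgeR 4.0.16 (glmQLFit, glmQLFTest, R 4.3.3), with Benjamini-Hochberg adjustment over all genes tested, and limma 3.58.1 and DESeq2 1.42.0 served as alternatives. Shares were compared by two-sided exact permutation tests over hashtags (scipy 1.17.1), with p adjusted over both shares, and given exact (Clopper-Pearson) 95% intervals. The tests were checked on simulated data. Gene positions came from GENCODE on GRCm38 and upstream sequence from RefSeq.

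The members and gene lists were chosen with earlier results of these data known. Genes named were the markers, the 20 highest and 10 lowest ratios to other Csf1r cells on the same side in 6 of 6 hashtags, for WT against EV 10 genes in each direction in order of p without overlap, the up to 4 most abundant genes of each list and Arntl. Other genes were named after their values were seen, namely list members below the top 4, genes of the Retnla cells, Rnase2a and genes of nearby myeloid states. A few items that met the rule are not reported here.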

Additional observations from a re-analysis of the deposited data

Results flagged for a closer look

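Rnase2a stood out because its difference between Bmal1 WT and Empty vector in C1q-high macrophages differed from that in the other Csf1r cells, by 5.88 on the log2 scale (edgeR, adjusted p = 0.00607). Among members it was above the other Csf1r cells in 5 of 6 hashtags and below them in h1 of EV, which held no UMI. In members, h7 held 85 UMIs in 11 cells, h8 1 UMI, h3 41 in 4 cells, h5 47 in 6 and h9 8 in 2. The other Csf1r cells of WT held next to no Rnase2a UMIs. The part that h7, which also had the most Retnla of the EV hashtags, played in the result was not tested beyond leaving it out.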

How the results depend on the processing

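No paired analysis was possible because the EV hashtags (h1, h7, h8) and the WT hashtags (h3, h5, h9) share no number. For genes called in WT against EV, 0 in the main analysis, DESeq2 gave 11, a filter of at least 1 UMI gave 123 of 13021 (51 higher, 72 lower), and leaving out 1 hashtag gave 0 to 9, with 9 without h7 of EV and 2 each without h5 or h9 of WT. All other settings gave 0, among them other cell filters, C1q thresholds, hashtag calls, TMM scaling, leaving out the highest 5% of doublet scores and limma. For the difference of differences, 1 in the main analysis, at least 3 C1q UMIs and leaving out Retnla cells gave 0, at least 10 C1q UMIs, 10 per 10000 UMIs, the other hashtag call and leaving out cycling cells gave 2 each, at least 1 UMI gave 56, and leaving out 1 hashtag 0 to 9. The causes were not tested, save that fewer UMIs were required per gene. Share differences kept their sign, at 1.26 to 12.6 points of Csf1r cells and 0.93 to 2.48 points of all cells when 1 hashtag was left out. The Rnase2a log2 fold change within members, -0.46, ran from -1.09 to 5.21 when 1 hashtag was left out, turning sign without h7 of EV (edgeR adjusted p = 0.0303). Of the list medians 317 were within 1 SD of the main value and 25 moved. Leaving out cycling or Retnla cells and the limma fit were chosen after seeing the data. Few cells limit all counts, since 11 cells made up h9 of WT.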

Other observations

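Some values of the C1q-high macrophages belong to no comparison above. C1q of at least 5 UMIs was also found in 8 EV and 15 WT cells without a Csf1r UMI, and in 9 EV and 5 WT Csf1r cells left out for a Cd3e, Cd3d or Ncr1 UMI. Cxcl9, an interferon-induced chemokine for T cells, varied more among hashtags than between groups, at 123, 760.5 and 1295 CPM in EV and 489, 794 and 18.0 CPM in WT. Clec4n, the lectin Dectin-2, was at 69.5 to 202 CPM in EV and at 145, 794 and 186 CPM in WT, highest in h5, and was above the other Csf1r cells in 6 of 6 hashtags. Plxdc2 was at 20.2 to 26.2 CPM in EV and 51.0, 166 and 35.9 CPM in WT, without overlap (log2 fold change 1.93, edgeR adjusted p = 0.307).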
